A study of Homo sapiens with 12 samples.

Results

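The comparison set OCI-Ly7 cells treated with 10 μM ibrutinib against OCI-Ly7 cells treated with 1 μM ibrutinib, and asked which transcripts differed between the doses. Its members were the 6 arrays whose sample titles give these doses, 3 per dose, out of 12 arrays in the series. OCI-Ly7 is an established human line of diffuse large B-cell lymphoma, and all the cells were cultured in DMEM with fetal bovine serum. The other arrays came from 3 samples of vehicle-treated cells and 3 samples treated with 1 μM PLS-123, a second covalent Btk inhibitor. Every treatment, vehicle included, lasted 24 hours. Total RNA was labelled as biotinylated cRNA and read on Affymetrix U133 Plus 2.0 arrays, on which each transcript is represented by a probe set, a group of short probes. Replicates carry the letters A, B and C. Whether replicates were grown as separate cultures is not given in the labels, so the p values below measure only the spread between these samples, which may be technical. A single cell line was used, and the results hold for that line alone.

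Ibrutinib binds a cysteine beside the ATP pocket of Btk and switches the kinase off permanently. Btk sits downstream of the B-cell receptor. Antigen or tonic signalling makes Lyn and Syk phosphorylate the receptor tails and the adaptor BLNK, Btk then activates phospholipase C gamma 2, and the signal spreads to calcium and NFAT, to Ras and ERK, to NF-kB, and through PI3K to AKT, mTORC1 and the FOXO factors. Ibrutinib also reaches other kinases that carry a cysteine at the equivalent position, among them Tec, Blk, Txk, EGFR, ERBB2, ERBB4 and Jak3.

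The deposited intensities, normalized by the authors with RMA, ran from 2.09 to 15751, with array medians between 14.2 and 14.8, and were converted to log2. The B-lineage markers were strong at both doses. CD79A, a signalling chain of the receptor, read between 10.25 and 10.48 on the log2 scale at 1 μM and between 10.21 and 10.33 at 10 μM, and PAX5, the factor that maintains B-cell identity, between 10.49 and 10.71 and between 10.52 and 10.56. MS4A1, the gene for CD20, was lower at the higher dose (log2 difference -0.58 ± 0.10 (SE), adjusted p = 0.0015). Among markers of other cells, the CD3 chains CD3D, CD3E and CD3G read between 2.43 and 4.32 on all 6 arrays. Other T and NK cell markers did differ between the doses. LCK, which was bright at both doses, and CD28 were called lower, and ZAP70 was called higher. Neither the 17 myeloid nor the 22 stromal and epithelial markers held a gene called different. The median SD between the 3 arrays of a dose was 0.12 at 1 μM and 0.11 at 10 μM.

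Raising the dose from 1 to 10 μM changed a broad set of transcripts. Probe sets were tested with limma across all 12 arrays, with p values adjusted by the Benjamini-Hochberg method, and an adjusted p under 0.05 was called. Of 54613 probe sets, 2304 (4.22%) were higher and 1852 (3.39%) were lower at 10 μM, so that 44.6% of the calls were falls. The smallest difference called was 0.25 on the log2 scale, and the median size of those called was 0.52. At a fold change of 1.5 with an unadjusted p under 0.05, 1082 probe sets (1.98%) were higher and 669 (1.22%) lower. Read gene by gene, through the brightest probe set of each of 19775 genes, 1042 genes (5.27%) rose and 881 (4.46%) fell. Of these 1923 genes, 1920 had doses that did not overlap, so a lack of overlap sets hardly any called gene apart.

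The large differences were few and, on the deposited scale, lay more often upward. Log2 differences above 1 were seen in 178 genes that rose and in 95 that fell, differences above 2 in 33 and 15, and differences above 3 in 10 and 6. The median level of these rises was 5.79 at 1 μM and 7.18 at 10 μM, and 35 of the 178 genes were dim at 1 μM, that is, below the median probe set of 3.87. The 95 falls started at a median of 7.73 and ended at 6.02, and 9 of them were dim at 10 μM.

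**Figure D1:**
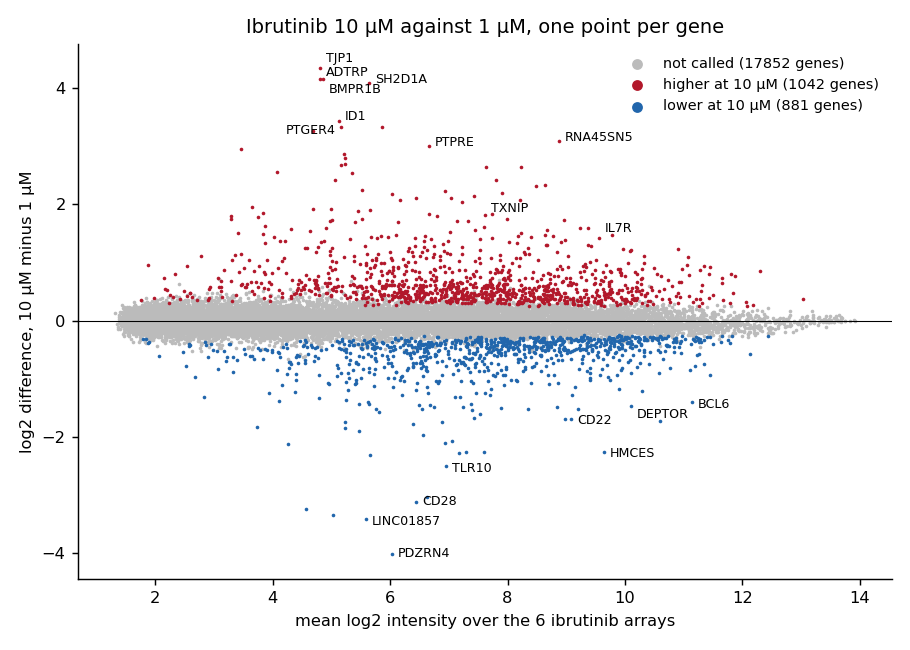
Each point is 1 of 19775 genes, with its mean log2 intensity over the 6 ibrutinib arrays on the x axis and the log2 difference between 10 μM and 1 μM on the y axis. Red points are the 1042 genes called higher at 10 μM, blue points the 881 called lower, and grey points the rest. The 4 genes above a difference of 4 are TJP1, ADTRP, BMPR1B and SH2D1A, and the gene below -4 is PDZRN4.

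These differences are relative to the bulk of the probe sets, whose median difference RMA places near 0. Control transcripts that are customarily added to the RNA before labelling moved against that bulk. All 24 poly-A spike-in probe sets had a higher mean at 10 μM than at 1 μM, by 0.18 to 0.48. They read only a few added transcripts on the same arrays, so they are not separate observations. Their mean was 6.54, 6.60 and 6.57 on the 1 μM arrays and 6.83, 6.94 and 6.95 on the 10 μM arrays, a difference of 0.34 (p = 0.1 by an exact two-sided permutation test, and no smaller p can be reached with 3 arrays per dose). The hybridization controls, which are added after labelling, differed by 0.06 (two-sided exact permutation test, p = 0.3). On a scale centred on the poly-A spike-ins, which was added as an alternative once the values were known, the median of all probe sets shifted to -0.34, 428 genes (2.16%) were higher, 11951 (60.4%) were lower, and 97.2% of the probe sets called were falls. This is called the spike-in scale below. The direction of a rise smaller than that shift depends on the scale, while falls become larger on it. Each array started from 100 ng of total RNA, and whether the spike-ins were added per amount of RNA is not stated. The cause of the shift was not tested. For a single gene in a bulk sample, fewer cells that express it and less of its RNA per cell cannot be told apart.

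The 12 largest rises and 12 largest falls were chosen among called genes whose doses did not overlap. Of the 12 rises, 9 had a 1 μM mean below the median probe set of 3.87, where the size of a difference depends on the background. TJP1, the tight junction scaffold ZO-1, read 2.68, 2.59 and 2.65 on the 1 μM arrays and 6.99, 6.98 and 6.98 on the 10 μM arrays, a log2 difference of 4.34 ± 0.11 (SE, n = 3 arrays per dose, adjusted p = 8.1e-11). Its other probe set gave 0.51 and was not called (adjusted p = 0.0533). ADTRP, a hydrolase of fatty acid esters, went from 2.44, 2.75 and 3.01 to 6.64, 7.04 and 7.0 (4.16 ± 0.15, adjusted p = 1.6e-09). In both genes every 10 μM array lay more than 3 log2 units above every 1 μM array.

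BMPR1B, a type I receptor for bone morphogenetic proteins, read 2.78, 3.02 and 2.52 at 1 μM against 6.95, 7.26 and 6.60 at 10 μM (4.16 ± 0.16, adjusted p = 1.6e-09), and its 3 probe sets all rose. ID1, an inhibitor of basic helix-loop-helix factors and a known target of the same receptors, read 3.17, 3.33 and 3.72 against 6.65, 7.11 and 6.77 (3.44 ± 0.17, adjusted p = 1.9e-08). SH2D1A, the adaptor SAP of the SLAM family receptors, read 3.11, 4.20 and 3.51 against 7.75, 7.71 and 7.60 (4.08 ± 0.22, adjusted p = 4.6e-08), with all 4 of its probe sets higher. The margin between the doses was wide in each of these genes, and that they do not overlap follows from the choice.

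Receptors followed among the next rises. PTGER4, the prostaglandin E2 receptor EP4, read 3.18, 3.87 and 3.46 at 1 μM and 6.84, 6.93 and 6.75 at 10 μM (adjusted p = 5.5e-09), while its other probe set gave 0.18 and was not called. FCMR, the Fc receptor for IgM, read 4.16, 4.10 and 4.32 and then 7.59, 7.51 and 7.47 (3.33 ± 0.18, adjusted p = 3.9e-08). PTPRE, a receptor-type tyrosine phosphatase, started from a higher level, 5.02, 5.26 and 5.22, and reached 8.12, 8.22 and 8.17 (3.01 ± 0.10, adjusted p = 6.6e-10). The remaining genes among the 12 largest rises were FRMD3 (3.26 ± 0.20), the ribosomal RNA precursor RNA45SN5 (3.10 ± 0.12), CCDC112 (2.95 ± 0.22) and FBXO15, an F-box protein (2.87 ± 0.16). All 12 rises also passed on the spike-in scale, where they lay between 2.54 and 4.0.

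RNA45SN5 was the brightest of these, at 7.10, 7.50 and 7.39 on the 1 μM arrays and 10.39, 10.46 and 10.43 on the 10 μM arrays. A control for 28S ribosomal RNA was read by separate probe sets along the molecule. Its 5′ probe set was higher at 10 μM by 1.04 and its middle probe set by 0.59 (two-sided exact permutation tests, p = 0.1 each). The 3′ probe set differed by 0.11 (p = 0.7, exact permutation test) and was dim, at means of 3.75 and 3.85. The controls for 18S ribosomal RNA were not higher. They gave -0.05 for the 5′, -0.23 for the middle and -0.17 for the 3′ probe set (exact permutation tests, p = 0.1, 0.1 and 0.3).

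The largest falls ended at very different levels, from 2.94 for NLRP4 to 8.51 for HMCES. PDZRN4, a protein with PDZ and RING domains, read 8.31, 7.79 and 8.05 at 1 μM and 3.74, 4.16 and 4.17 at 10 μM, a log2 difference of -4.03 ± 0.14 (SE, n = 3 arrays per dose, adjusted p = 7.3e-10). CD28, best known as the costimulatory receptor of T cells, read 8.13, 7.93 and 7.95 and then 4.89, 4.88 and 4.86 (-3.13 ± 0.10, adjusted p = 6.3e-10), with all 3 of its probe sets lower. TLR10, a Toll-like receptor found on B cells, went from 8.29, 8.14 and 8.19 to 5.47, 5.96 and 5.65 (-2.51 ± 0.11, adjusted p = 8.5e-09). That the doses do not overlap in these 3 genes follows from the way the largest falls were chosen.

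The long non-coding RNA LINC01857 fell by 3.42 on the log2 scale, the mucin gene MUC19 by 3.35 and NLRP4, a member of the NLR family, by 3.24. HDAC9, a class IIa histone deacetylase, read 6.98, 6.69 and 6.78 against 4.43, 4.43 and 4.64 (-2.32 ± 0.16, adjusted p = 3.8e-07). HMCES, which shields abasic sites in single-stranded DNA, was the brightest gene of this group and went from 10.69, 10.86 and 10.73 to 8.49, 8.47 and 8.55 (-2.26 ± 0.09, adjusted p = 3.1e-09). KMO, kynurenine monooxygenase, fell by 2.28, PNOC, the precursor of nociceptin, by 2.26, and DMD, the dystrophin gene, by 2.26. Dim probe sets of DMD at -0.58 and 0.04 were not called. MYH11, a smooth muscle myosin, had the widest spread among the 12, with 4.14, 5.85 and 5.34 at 10 μM against 8.18, 8.22 and 8.03 at 1 μM (-3.03 ± 0.34, adjusted p = 4.2e-05). That its doses do not overlap follows from the same choice. Further probe sets of MYH11 at -3.29, -2.47 and -0.41 (limma adjusted p = 0.025) were called lower. Those at 0.08, -0.41 (limma adjusted p = 0.094) and -0.22 were not called.

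**Figure D2:**
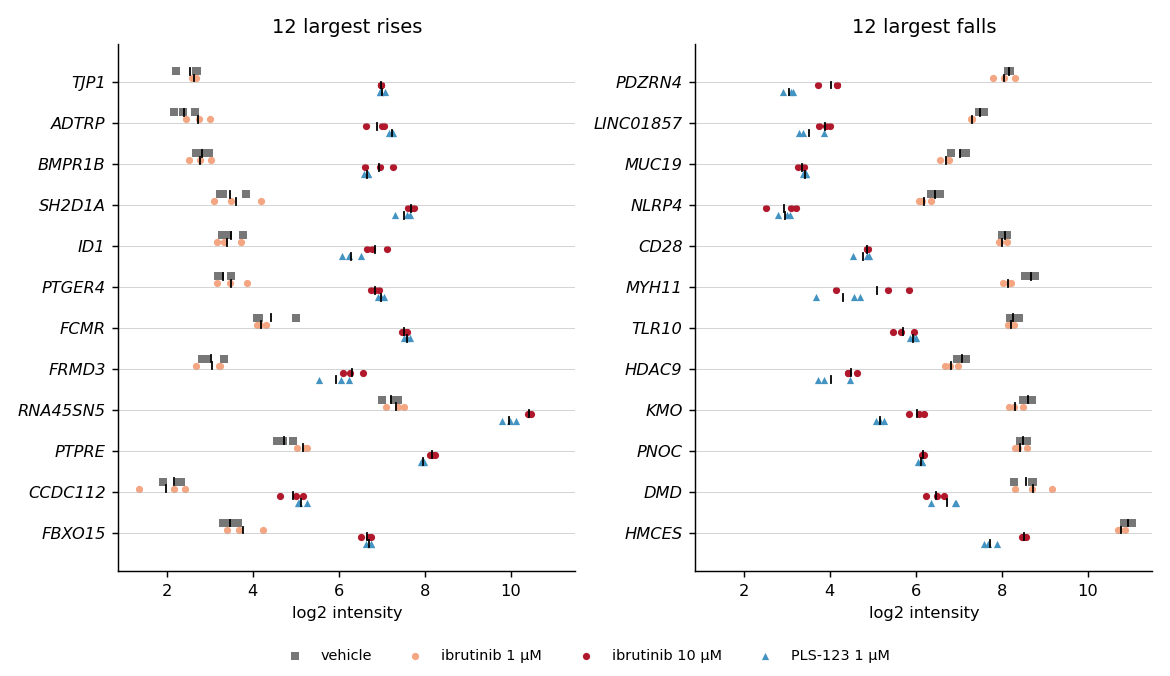
Points are log2 intensities (x axis) on single arrays for the 12 largest rises and the 12 largest falls between the ibrutinib doses, with 3 arrays in each of 4 groups and a black tick at each group mean. The genes were picked among those whose 10 μM and 1 μM arrays do not overlap. In all 24 the 10 μM arrays also lie apart from the vehicle arrays. The PLS-123 mean is closer to the 10 μM mean than to the 1 μM mean in each. In genes such as PDZRN4, KMO and HMCES the PLS-123 arrays lie below the 10 μM arrays.

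In these 24 genes the 1 μM arrays were close to vehicle. Against vehicle, 1 μM ibrutinib gave log2 differences between -0.53 (MYH11) and 0.44 (PTPRE), and none passed. Across all probe sets limma called none at 1 μM, with a smallest adjusted p of 0.28 and 2943 probe sets at an unadjusted p under 0.05. The comparison of 10 μM with vehicle, which shares the 10 μM arrays with the dose comparison, called 2944 probe sets higher and 2523 lower.

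Among genes of B-cell receptor signalling, more fell than rose. Of 43 measured, 15 were lower and 7 higher at 10 μM, beside 4.46% and 5.27% of all genes, and on the spike-in scale 31 were lower and 3 higher. Only 1 of the 43 was dim, and among coding genes that were not dim 7.12% were lower and 8.35% higher. These shares serve for each list below. The median over the list was -0.11, against 0.00 over all genes. Leaving out any 1 array kept 12 to 16 lower and 5 to 7 higher.

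At the top of the pathway the kinases went in different directions. SYK, which docks on the phosphorylated receptor tails, was higher at 10 μM, with 10.09, 10.20 and 10.14 at 1 μM and 10.89, 10.96 and 10.98 at 10 μM (0.80 ± 0.07, adjusted p = 7.2e-06), and all 4 of its probe sets were called higher. BTK itself read 9.09, 9.22 and 9.32 against 8.67, 8.71 and 8.73 (-0.50 ± 0.09, adjusted p = 0.0018), although the methods' t-test gave it an adjusted p of 0.061. LYN, the kinase that starts the cascade, gave -0.29 ± 0.08 (adjusted p = 0.038), a call that was lost when any of 8 single arrays was left out (adjusted p 0.0515 to 0.14). Of the receptor chains, CD79A was not called (-0.11, 95% confidence interval -0.30 to 0.08) and CD79B was higher by 0.30 ± 0.08 (adjusted p = 0.039), a value that became -0.03 on the spike-in scale and was not called without any of 9 single arrays (adjusted p 0.0512 to 0.112).

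Among the adaptors, enzymes and exchange factors below them, BLNK, PLCG2, RASGRP3, VAV1 and RAC2 fell and VAV2 and VAV3 rose. BLNK, the scaffold that brings Btk to its substrate, went from 10.51, 10.39 and 10.35 to 9.70, 9.73 and 9.67 (-0.72 ± 0.08, adjusted p = 2.8e-05), and PLCG2, that substrate, gave -0.42 ± 0.09 (adjusted p = 0.0061). RASGRP3, which turns diacylglycerol into Ras activation, read 6.59, 6.29 and 6.39 and then 4.59, 4.58 and 4.38 (-1.91 ± 0.10, adjusted p = 4e-08). VAV1, the haematopoietic exchange factor for Rac, fell by 1.03 ± 0.08, while its relatives VAV3 and VAV2 were higher by 0.85 ± 0.07 and 0.55, VAV2 without passing on the spike-in scale (0.21). RAC2, the Rac form of blood cells, fell by 0.79.

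Inhibitors of the receptor were among both the falls and the rises. CD22, a sialic acid-binding co-receptor that restrains the signal, read 9.82, 10.03 and 9.93 at 1 μM and 8.15, 8.25 and 8.32 at 10 μM (-1.69 ± 0.08, adjusted p = 1.8e-08), and all 4 of its probe sets fell. CD72, another inhibitory co-receptor, fell by 0.81. CBLB, a ubiquitin ligase that dampens receptor signalling, was higher by 0.81 ± 0.11, and INPP5D, the phosphatase SHIP-1 that opposes PI3K, by 0.46 ± 0.08, though INPP5D did not pass on the spike-in scale (0.13). Calcineurin and NFAT genes were represented among the falls by PPP3CC (-0.66), NFATC1 (-0.51) and PPP3CB (-0.34).

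**Figure D3:**
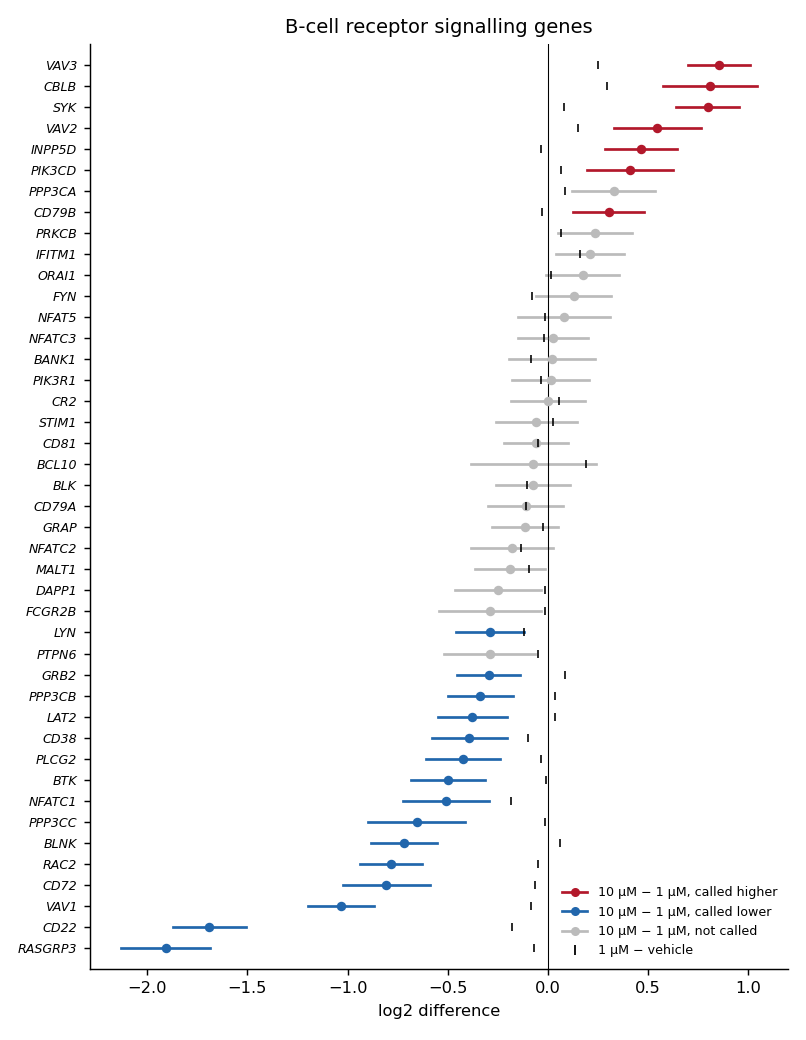
Log2 differences (x axis) for 43 B-cell receptor signalling genes, 10 μM minus 1 μM, with 95% confidence intervals as bars, coloured by whether limma called the gene higher (7), lower (15) or not (21). Black ticks give the difference between 1 μM and vehicle, which was not called for any of them. RASGRP3, CD22 and VAV1 lie furthest to the left and VAV3, CBLB and SYK furthest to the right.

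Of 8 measured kinases with the cysteine that ibrutinib binds, BTK and TEC were lower and none was higher (5 and 0 on the spike-in scale). TEC, the founding member of the Btk family, had a weak signal, with 4.44, 4.83 and 4.81 at 1 μM and 4.11, 3.87 and 3.85 at 10 μM (-0.75 ± 0.15, adjusted p = 0.0063). The methods' t-test put it at an adjusted p of 0.13. BLK, a B-cell Src kinase, was bright at both doses (9.20 to 9.48 and 9.24 to 9.36) and was not called (-0.07, 95% confidence interval -0.26 to 0.11). The intervals were -0.28 to 0.26 for TXK, -0.17 to 0.33 for EGFR, -0.45 to 0.14 for ERBB2, -0.09 to 0.31 for ERBB4 and 0.03 to 0.45 for JAK3, and none of these 5 was called after adjustment. TXK, EGFR, ERBB2 and ERBB4 had mean levels of 4.96 or less at 1 μM.

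Genes that define the germinal centre B cell had, on the deposited scale, the highest share of falls among the 33 lists examined. Of 28 measured, 12 were lower and 3 higher, with a median of -0.27, and on the spike-in scale 22 were lower and 1 higher. BCL6, the repressor on which the germinal centre state rests, read 11.91, 11.81 and 11.79 and then 10.40, 10.39 and 10.52 (-1.40 ± 0.08, adjusted p = 4.6e-08), with all 3 probe sets lower. POU2F2, the B-cell octamer factor Oct-2, fell by 1.02 ± 0.09 and 6 of its 7 probe sets were called. IRF8 fell by 0.86, MYBL1 by 0.86 and RGS13, which curbs chemokine receptor signalling, by 0.90.

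The exceptions were of different sizes. MME, the surface peptidase CD10, read 9.25, 9.39 and 9.37 and then 10.57, 10.60 and 10.56 (1.24 ± 0.07, adjusted p = 8.5e-08). ETS1 and POU2AF1 were higher by 0.37 and 0.29, but gave 0.04 and -0.04 on the spike-in scale. The list had 1 rise without any of the 10 μM arrays or without 1 μM replicate B or C. PAX5, SPI1 and IKZF3 were not called, at -0.09, -0.03 and -0.01.

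Among Ras and ERK genes, 7 of 32 were lower and 2 higher (20 and 2 on the spike-in scale). The falls joined activators and brakes. RASGRP1, an exchange factor like RASGRP3, read 5.91, 5.97 and 5.80 and then 4.35, 4.90 and 4.82 (-1.20 ± 0.14, adjusted p = 8.5e-05). SPRED1 and SPRED2, which hold Ras inactive at the membrane, fell by 1.34 ± 0.16 and 0.71 ± 0.09, and DUSP5, a nuclear ERK phosphatase, by 0.54. DUSP6, SPRY2 and SPRY4, feedback genes that follow ERK output in many cells, were not called (-0.04, 0.15 and 0.18). In the p38 and JNK branch, GADD45A, a stress-induced activator of the kinase cascade, rose from 8.96, 8.76 and 8.59 to 10.09, 10.05 and 10.02 (1.28 ± 0.09, adjusted p = 6.1e-07), and MAP2K6, the p38 activator MKK6, fell by 0.62.

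PI3K and AKT genes were split, with 6 of 21 higher and 3 lower, and on the spike-in scale 1 higher and 12 lower. SGK1, a kinase related to AKT, fell from 8.04, 7.86 and 8.06 to 6.31, 6.56 and 6.64 (-1.49 ± 0.12, adjusted p = 2.7e-06). GAB1, a docking protein for PI3K, rose by 1.34 ± 0.23 (adjusted p = 0.0017) with 1 μM arrays as far apart as 7.0 and 8.03. IRS1 fell by 0.58, and IRS2 gave 0.64 ± 0.16 with overlapping doses. The number of rises was 2 without 10 μM replicate B or without 1 μM replicate A, and 3 without 10 μM replicate C.

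Genes under FOXO control or tied to quiescence were called in 1 direction on the deposited scale. AKT keeps FOXO factors out of the nucleus, and these factors drive genes of rest and of early lymphocyte development. Of 31 measured, 9 were higher and 0 lower at 10 μM, with a median of 0.16, and on the spike-in scale 6 were higher and 10 lower. With single arrays left out, 8 to 10 were higher, and 1 was lower without vehicle replicate B.

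TXNIP, which binds thioredoxin and limits glucose uptake, read 6.63, 6.64 and 6.86 at 1 μM and 8.52, 8.53 and 8.54 at 10 μM (1.82 ± 0.09, adjusted p = 1.5e-08). IL7R, the interleukin-7 receptor chain of early lymphocytes, rose from 8.81, 8.99 and 8.73 to 10.29, 10.27 and 10.24 (1.43 ± 0.08, adjusted p = 7.7e-08). CDKN1B, the cell cycle inhibitor p27, rose by 0.89 ± 0.14 (adjusted p = 0.00075). The doses did not overlap in these 3 genes, as in 1920 of the 1923 genes called. YPEL3 was higher by 1.05 and BTG1, an anti-proliferative gene, by 0.71. RAG2, a recombinase subunit of developing lymphocytes, was higher by 0.95 but remained dim at both doses, at a mean of 1.40 and 2.35. FOXO1, FOXO3 and FOXO4 themselves gave -0.00, 0.16 and -0.09 and were not called.

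The FOXO motif TGTTTAC, searched on both strands in RefSeq windows of 1 length around the start of each gene, lay in 2.62% of 15384 promoters. It was found in 4.60% of the promoters of genes that rose and 1.82% of those of genes that fell, and in 4 of 29 promoters of the FOXO list, 3 of them of genes that rose. The windows of TXNIP and BTG1 are shown because both genes rose and hold it, with the motif or its reverse complement in capitals and the gene's strand read 5′ to 3′. They cover chr1:145996650-145996749 (minus strand) and chr12:92145997-92146096 (minus strand) of GRCh38.p14, and the motif begins 124 and 209 bases before the gene start.
TXNIP: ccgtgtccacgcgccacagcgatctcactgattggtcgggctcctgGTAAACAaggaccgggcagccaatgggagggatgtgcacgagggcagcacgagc
BTG1: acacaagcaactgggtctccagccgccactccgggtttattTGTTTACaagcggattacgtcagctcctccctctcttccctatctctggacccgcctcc
A match of letters is a description and no evidence of binding. Of the 7 motifs searched, the AP-1 site TGANTCA lay in 5.84% of all promoters, 3.30% of those of genes that rose and 4.62% of those of genes that fell. The E-box CACGTG lay in 8.90%, 8.02% and 9.38%, the sterol element TCACNCCAC in 1.09%, 0.943% and 1.40%, and the cell cycle element TTTGAA in 11.9%, 10.6% and 11.3%.

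Of 39 regulators of mTORC1, 8 were lower, 3 higher and 28 not called, with a median of -0.02, and on the spike-in scale 30 were lower and 0 higher. DEPTOR, an inhibitor that sits in the mTOR complexes, fell from 10.88, 10.82 and 10.83 to 9.39, 9.38 and 9.33 (-1.48 ± 0.07, adjusted p = 1.5e-08). The stress-induced inhibitors SESN2 and DDIT4 fell by 0.85 and 0.56 and RRAGD, a Rag GTPase of the lysosomal sensor, by 0.84. RICTOR, the defining subunit of mTORC2, was higher by 0.50, which did not pass on the spike-in scale (0.16). MTOR and RPTOR were not called (-0.07 and 0.02). The number of falls was 5 without 10 μM replicate A or B or without 1 μM replicate B or C.

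ATF4 is the factor of the amino acid response. Of 33 of its targets measured, 8 were lower, 1 higher and 24 not called, with a median of -0.19 (25 and 0 on the spike-in scale). SLC7A11, the cystine importer, read 7.45, 7.56 and 7.47 and then 5.81, 6.15 and 6.04 (-1.49 ± 0.09, adjusted p = 1.4e-07), and its 3 probe sets all fell. CHAC1, which degrades glutathione, read 7.84, 8.20 and 8.23 and then 6.68, 6.87 and 6.98 (-1.25 ± 0.11, adjusted p = 5e-06). ATF5, a related factor, fell by 1.19 ± 0.08 and ASNS, asparagine synthetase, by 0.66 ± 0.08. The doses were apart in each, as in nearly all genes called. DDIT3, the factor CHOP, and the serine pathway enzyme PSAT1 fell by 0.63 and 0.58, while ATF4 itself (-0.12) and TRIB3 (-0.13) were not called. SLC38A2, a glutamine transporter, was the rise, at 0.50 (0.16 on the spike-in scale, not called).

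The ATF4 element TGATGCAA was present, on either strand, in 0.722% of 15384 promoters, in 0.236% of those of genes that rose and 1.26% of those of genes that fell. It lay in 2 of 26 promoters of the ATF4 list. The window of CHAC1, at chr15:40953221-40953320 (plus strand, GRCh38.p14), is shown because CHAC1 fell and holds the element 209 bases before its start, here as the reverse complement in capitals.
CHAC1: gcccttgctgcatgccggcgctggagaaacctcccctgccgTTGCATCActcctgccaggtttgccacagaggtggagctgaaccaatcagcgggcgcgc

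Aminoacyl tRNA synthetases, several of which ATF4 also controls, showed small falls in 5 of 17 genes and no rise, with a median of -0.24 (17 lower on the spike-in scale). SARS1 (-0.42) and YARS1 (-0.35) led them among calls that held without any single array, and GARS1, AARS1 and NARS1 gave -0.37, -0.33 and -0.31. Only 2 of the list were called without 1 μM replicate C, and 3 without 10 μM replicate A or B.

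NF-kB targets were called in both directions, 4 higher and 4 lower of 28 (3 and 16 on the spike-in scale). NFKBIA, the inhibitor that NF-kB induces against itself, rose from 8.73, 9.08 and 8.87 to 9.82, 9.89 and 9.99 (1.01 ± 0.09, adjusted p = 7.5e-06). LTB, lymphotoxin beta, and CCR7, the homing receptor to lymph nodes, rose by 1.08 ± 0.09 and 1.14 ± 0.13. CCR7 started from a dim 1 μM mean of 2.89. TRAF1 and RELB fell by 0.85 and 0.54. Among immediate early and activation genes 4 of 24 were higher and 2 lower (2 and 11 on the spike-in scale). CD69, an early activation marker that also holds lymphocytes in tissue, rose from 3.05, 2.67 and 2.68 to 5.29, 5.77 and 5.02 (2.56 ± 0.18, adjusted p = 5e-07). EGR1 was higher by 1.03 from a dim 1 μM mean of 3.65, while its other probe sets gave 0.21 and 0.24 and were not called. CD86, a ligand of CD28, fell by 1.08 ± 0.08. FOS, FOSB and JUNB were not called (0.17, 0.02 and 0.02).

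Genes that promote cell death were more often higher, on the deposited scale only. Of 28 pro-apoptotic genes, 7 were higher and 2 lower, with a median of 0.10, while on the spike-in scale 5 were higher and 13 lower. TNFSF10, the death ligand TRAIL, rose from 4.01, 4.26 and 4.14 to 5.93, 5.88 and 5.81 (1.73 ± 0.12, adjusted p = 3.8e-07). HRK, a BH3-only protein, rose from 8.66, 8.81 and 8.70 to 9.96, 10.03 and 10.09 (adjusted p = 1.5e-07), with 4 of its 5 probe sets called. FAS was higher by 0.91 ± 0.08 and BCL2L11, the BH3-only protein BIM, by 0.52 (0.18 on the spike-in scale, not called), while the effectors BAX and BID fell by 0.56 and 0.33. Of the 11 anti-apoptotic genes only BIRC2 was called (0.27). It turned to -0.07 on the spike-in scale and lost its call without any of 6 single arrays, and MCL1, BCL2L1 and XIAP gave -0.19, 0.09 and 0.01. Of 21 p53 targets 2 were higher and 3 lower, beside 5.27% and 4.46% of all genes (2 and 14 on the spike-in scale). TP53INP1, a stress gene that p53 can induce, rose by 2.32 ± 0.09 on 1 of its 3 probe sets, and CDKN1A, the classic p53 target p21, gave -0.08.

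Genes of the replication machinery stayed within a narrow range. Of 44 genes of DNA replication and nucleotide synthesis, 1 was called, GINS1 at -0.28, and the 44 values lay between that and 0.26, although 36 were lower on the spike-in scale. The call of GINS1 was lost without any of 6 single arrays (adjusted p 0.0504 to 0.1). The E2F motif, TTTCCCGC or TTTGGCGC on either strand, stood in 16 of 38 promoters of this list. It lay in 2.99% of all promoters, 2.95% of those of genes that rose and 2.80% of those of genes that fell, and 1 of the 16 genes was called. Mitotic genes gave 3 falls and 2 rises of 38, beside 4.46% and 5.27% of all genes (29 and 0 on the spike-in scale). AURKA, a spindle kinase, fell by 0.46 ± 0.08, and the falls of PLK1 and CDC20 (-0.36 and -0.28) were lost without any of 8 and of 9 single arrays. In the G1 list, 5 of 18 fell and 1 rose (12 and 1 on the spike-in scale). CCND3, cyclin D3, went from 10.63, 10.88 and 10.83 to 10.05, 10.01 and 10.05 (-0.74 ± 0.08, adjusted p = 3.4e-05), its partner CDK6 fell by 0.57 ± 0.07, CCNE1 by 0.41 and E2F1 by 0.37, and the rise was CDKN1B. Without 10 μM replicate B, or without 1 μM replicate B, 3 of the G1 falls were called.

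Of 31 MYC target and ribosome biogenesis genes 2 were called, both higher, a share close to the 5.27% of all genes called higher. MXI1, an antagonist of MYC, rose from 7.65, 7.76 and 7.73 to 8.96, 8.98 and 8.97 (1.25 ± 0.08, adjusted p = 1.2e-07), and MYB, a progenitor factor, by 0.85 ± 0.08. On the spike-in scale the list had 29 lower genes and the same number higher, 2.

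**Figure D4:**
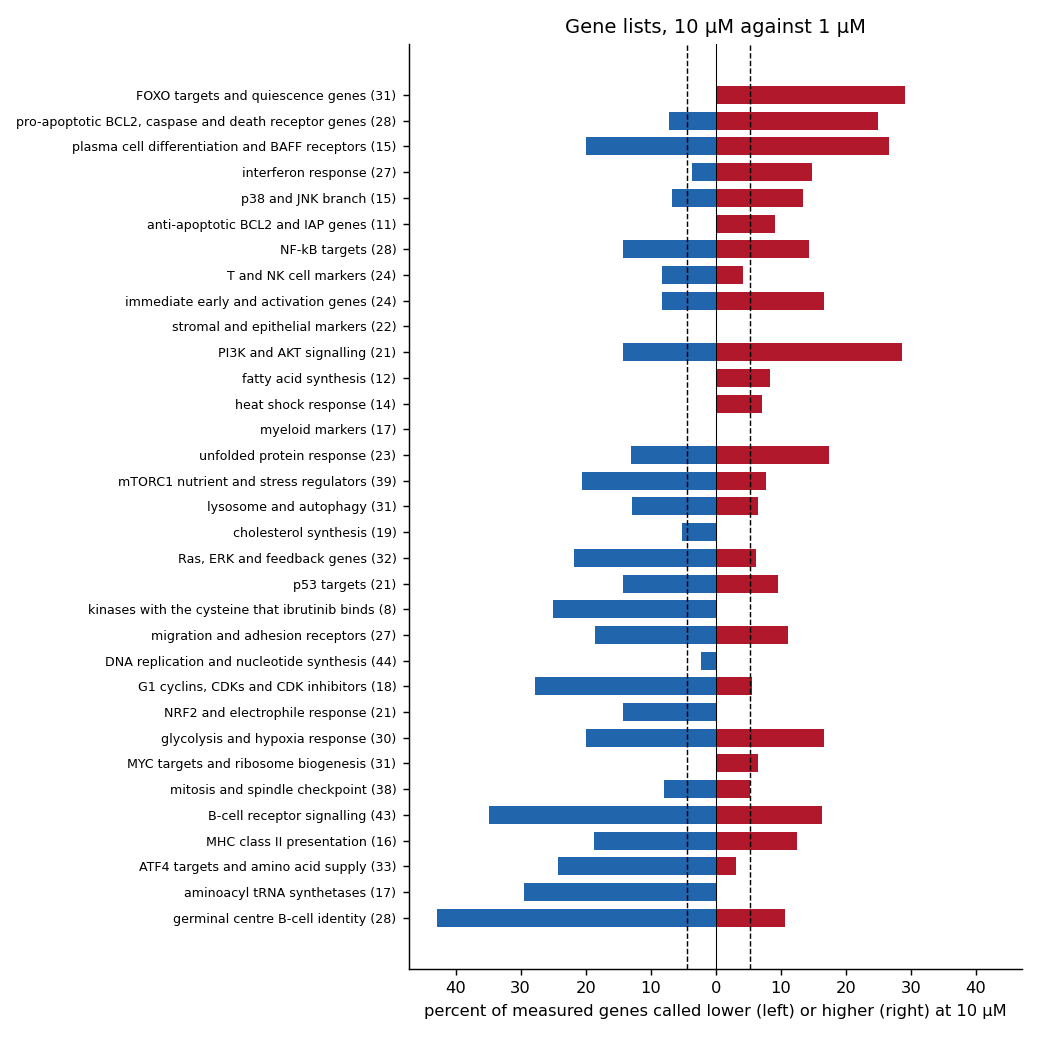
Bars give the percent of measured genes in each of 33 lists that limma called higher (right, red) or lower (left, blue) at 10 μM than at 1 μM, with the number measured in brackets and lists ordered by their median log2 difference. Dashed lines mark the percent over all 19775 genes, 5.27% higher and 4.46% lower. Among coding genes that were not dim these were 8.35% and 7.12%. The germinal centre and B-cell receptor lists reach furthest to the left, and the FOXO list has rises only, on the deposited scale (6 higher and 10 lower on the spike-in scale).

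B-cell surface and antigen presentation genes varied by gene. HLA-DOB, which tempers peptide loading in B cells, fell from 5.94, 6.25 and 6.31 to 4.44, 4.18 and 4.32 (-1.85 ± 0.13, adjusted p = 5.2e-07), HLA-DQB1 by 0.76 and the invariant chain CD74 by 0.62. HLA-DRA was not called (-0.20), and CTSS, the protease that trims the invariant chain, was higher by 0.58. In the plasma cell list, TNFRSF17, the receptor BCMA, fell from 7.22, 7.24 and 7.21 to 5.61, 5.85 and 5.84 (-1.46 ± 0.09, adjusted p = 2.4e-07) and IRF4 by 0.52, while CD27, a memory B-cell receptor, rose by 1.04 ± 0.08. PRDM1, the plasma cell repressor BLIMP-1, gave -0.01.

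Receptors that place B cells in tissue were called in 8 of 27 cases, 3 higher and 5 lower (3 and 15 on the spike-in scale). P2RY8, which confines B cells to the germinal centre, fell from 9.79, 10.08 and 10.00 to 8.39, 8.39 and 8.49 (-1.53 ± 0.08, adjusted p = 5.3e-08), and S1PR2, another confinement receptor, by 0.47. S1PR4, CCR7 and CXCR4 rose by 1.22, 1.14 and 0.74, CCR7 from a dim 1 μM mean of 2.89. Without any of 6 single arrays, namely the 3 of 10 μM, 1 μM replicates B and C and vehicle replicate C, 3 of the 5 falls were called. Interferon response genes were higher in 4 and lower in 1 of 27 cases (2 and 11 on the spike-in scale), with IRF1 (1.02) and MX1 (0.99) higher, BST2, the surface protein tetherin, lower (-0.46), and IFIT1 and ISG15 not called (0.13 and -0.27).

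Metabolic and stress lists held single strong members. ADM, adrenomedullin, which hypoxia and other stresses induce, rose from 3.90, 4.16 and 3.59 to 6.66, 6.59 and 6.50 (2.70 ± 0.14, adjusted p = 3.1e-08), whereas VEGFA, ENO2 and PFKFB3 of the same list fell by 0.61, 1.04 and 0.75. The hypoxia and glycolysis list as a whole had 5 higher and 6 lower of 30 (3 and 20 on the spike-in scale). CTSH, a lysosomal protease, rose by 2.08 ± 0.09, and TFEB, the master factor of lysosomal genes, fell by 0.85 ± 0.07. ELOVL6, a fatty acid elongase, rose by 1.20 ± 0.11 and HSPB1, a small heat shock protein, by 0.90 ± 0.11. Of 19 cholesterol synthesis genes 1 was called (PMVK, -0.58), of 21 NRF2 genes 3 were called, all lower (SLC7A11, SRXN1 and FTL, the last of which lost its call without any of 5 single arrays), and HMOX1 and NQO1 gave -0.16 and -0.07. On the spike-in scale 15 of the cholesterol and 19 of the NRF2 genes were lower. Unfolded protein response genes had 4 higher and 3 lower of 23 (1 and 14 on the spike-in scale), and the chaperone HSPA5 gave -0.09.

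Of 24 T and NK cell markers, CD28 and LCK were lower and ZAP70 higher (0.59, and 0.25 without a call on the spike-in scale). Over all genes 4.46% were lower and 5.27% higher. LCK, a Src kinase that some B-cell lymphomas also express, was bright at both doses and fell by 0.74 ± 0.07. The summed intensity of the 24 markers was 11.06 to 11.07 on the log2 scale at 1 μM and 10.34 to 10.35 at 10 μM. The summed myeloid markers read 7.49 to 7.60 and 7.46 to 7.53, and the stromal and epithelial markers 9.39 to 9.43 and 9.26 to 9.29. The 3′ to 5′ difference of the GAPDH control, which grows as transcripts are shortened, was 0.27 ± 0.03 (SD, n = 3) at 1 μM and 0.39 ± 0.01 at 10 μM (two-sided exact permutation test, p = 0.1), and that of ACTB was 2.67 ± 0.18 and 2.74 ± 0.08 (p = 0.6, exact permutation test). With the ACTB difference as a covariate, 142 of 147 named genes kept their call. The part of the GAPDH difference in the results was not tested.

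Protein-coding genes were called higher in 5.94% and lower in 4.95% of 16516 cases. Long non-coding RNAs were called in 1.54% and 1.84% of 2657 cases, and 73.9% of them were dim. Among genes that were not dim the figures were 8.35% and 7.12% of 11108 coding genes and 4.76% and 5.63% of 693 long non-coding RNAs. Where a called gene had further probe sets, they gave a second reading. Of 1268 such genes, 634 had another probe set called in the same direction and 6 had one called in the opposite direction.

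The effect of the dose step was also set beside that of 1 μM PLS-123 against vehicle, a comparison with which it shares no array. The doses and compounds differ, so the values stand side by side. Against vehicle, PLS-123 gave 3476 probe sets higher (6.36%) and 5664 lower (10.4%). Probe sets higher in both numbered 1645, which is 71.4% of those higher at 10 μM and 47.3% of those higher with PLS-123. Probe sets lower in both numbered 1540, which is 83.2% and 27.2%, and 11 went in opposite directions. Across the 27307 probe sets that were not dim, the log2 differences of the 2 comparisons had a Pearson r of 0.80. Probe sets are not independent replicates. Both sets of arrays went through the same normalization, and both sets of calls used the same estimate of spread from all 12 arrays. The poly-A spike-ins, higher by 0.34 between the doses, were higher by 0.22 with PLS-123, and the 28S 5′ control was higher by 1.04 in each comparison, and the part of these shifts in the likeness was not tested.

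A direct test of the dose difference minus the PLS-123 effect called 41 probe sets (0.0751%) and 17 genes. SLC7A11 gave -1.49 between the ibrutinib doses and -2.58 with PLS-123 against vehicle (difference 1.09 ± 0.13 (SE), adjusted p = 0.0071). LAPTM5, a lysosomal protein that lowers antigen receptor levels, gave -0.84 and -2.06 (1.22 ± 0.13, adjusted p = 0.0048), and TNFRSF17 -1.46 and -2.60 (1.14 ± 0.13, adjusted p = 0.0067). PLEK, the protein kinase C substrate pleckstrin, gave -1.53 and -2.81 (1.27 ± 0.17, adjusted p = 0.014). KMO gave -2.28 and -3.43, and CHAC1 -1.25 and -2.42, with adjusted p values of 0.016 and 0.015 for the difference. For LAPTM5 and TNFRSF17 part of the distance to vehicle lay below the lower dose, since 1 μM ibrutinib against vehicle gave -0.59 and -0.64, neither of them called.

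In a second set of genes the value with PLS-123 was above that of the dose step. MIR17HG, the host transcript of a microRNA cluster, gave -0.11 between the doses and 1.53 with PLS-123 (-1.64 ± 0.23, adjusted p = 0.016). Its arrays read 4.40, 4.15 and 4.34 with vehicle, 5.44, 4.76 and 5.29 at 1 μM, 5.13, 4.88 and 5.15 at 10 μM and 5.73, 5.65 and 6.08 with PLS-123, so both ibrutinib doses lay between the other groups. S100A4, a calcium-binding protein, gave -0.56 and 0.58 (difference adjusted p = 0.018). Its 10 μM arrays (4.76, 5.08 and 5.25) all lay below the vehicle arrays (5.46, 5.38 and 5.36) and its PLS-123 arrays (5.91, 6.12 and 5.92) all lay above them. TBC1D9 gave -0.09 and 0.97 (-1.06 ± 0.14, adjusted p = 0.014). The number of probe sets in this test was 10 without 10 μM replicate B, 11 without 10 μM replicate C or 1 μM replicate A, 13 without 1 μM replicate C, 17 without vehicle replicate A, 20 without PLS-123 replicate C and 22 without vehicle replicate B.

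**Figure D5:**
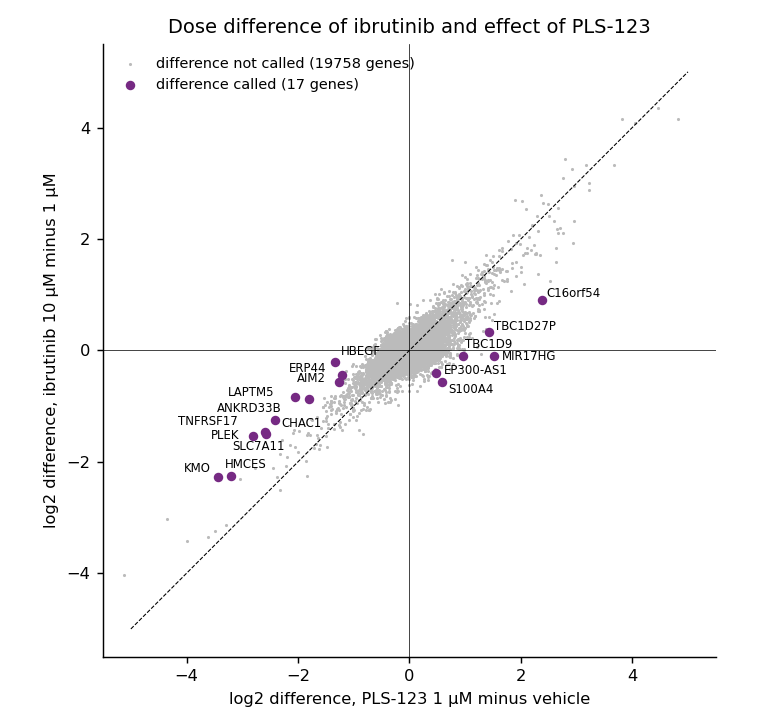
Each point is a gene, with the log2 difference between 1 μM PLS-123 and vehicle on the x axis and that between 10 μM and 1 μM ibrutinib on the y axis, and the dashed line marks equality. Purple points are the 17 genes for which limma called the difference between them. Most genes with large values lie along the line, and called genes such as PLEK, LAPTM5 and MIR17HG lie off it.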

How the data were processed

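Expression was measured on Affymetrix U133 Plus 2.0 arrays in 12 samples of OCI-Ly7 cells, 3 in each of 4 groups, from 100 ng of total RNA. The deposited values are probe set intensities on a linear scale, which the authors made with RMA (version not stated), and arrays were not pooled. Array number limits the precision.

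Groups came from the sample titles. Intensities were converted to log2 with nothing added. The test design had assumed log2 values, and was otherwise kept. The 62 control probe sets were left out, which left 54613. Gene symbols came from the platform annotation, with 41091 probe sets of 1 symbol, 1801 of several and 11721 of none, and each of 19775 genes was read through the probe set with the highest mean. limma (version 3.58.1, R 4.3.3) fitted 1 mean per group over all 12 arrays, with 8 residual degrees of freedom and Benjamini-Hochberg adjustment over all probe sets, and was tested on simulated data. Single control values were compared by exact permutation tests. No 2 arrays were duplicates, the smallest median absolute difference between any pair being 0.11.

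The members and the 33 gene lists (841 genes, 774 measured) were chosen with earlier results of these data known. Named genes were the 12 largest rises and 12 largest falls without overlap between doses, up to 5 called members of each list with the largest differences, all kinases with the ibrutinib-binding cysteine, proximal B-cell receptor genes, and up to 5 genes in each direction whose dose effect differed most from that of PLS-123. Genes named outside this rule, all other list members among them, were chosen after their values were seen. Some list genes are not reported here. Promoter sequences came from RefSeq (GRCh38.p14).

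Alternatives were the methods' t-test, a fit of the 6 ibrutinib arrays, a variance trend with intensity, a block for the sample letter, other normalizations, filters and offsets, an ACTB covariate, and each array left out.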

Additional observations from a re-analysis of the deposited data

Results flagged for a closer look

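3 control measurements, taken on probe sets left out of the gene tests, were higher at 10 μM ibrutinib than in the vehicle arrays. The probe set for the 5′ part of 28S ribosomal RNA was higher by 1.22 on the log2 scale, with 12.94 to 13.02 at 10 μM against 11.72 to 11.84 with vehicle. The probe set for its middle part was higher by 0.67, with 10.49 to 10.53 against 9.81 to 9.91. The mean of the 24 poly-A spike-in probe sets was higher by 0.31, with 6.83 to 6.95 against 6.52 to 6.69. The arrays did not overlap in any of the 3. The poly-A spike-ins also set the spike-in scale.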

How the results depend on the processing

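The dose comparison called 2304 probe sets higher and 1852 lower, of which falls were 44.6%. The counts became 345 and 194 with a log2 difference over 1, 838 and 593 with the methods' t-test, 1227 and 1099 with 1 probe set per gene, and 916 and 32073 on the spike-in scale, an alternative added after the values were seen. At a fold of 1.5 with an unadjusted p under 0.05, 1082 and 669 became 405 and 4402 on the spike-in scale, 478 and 311 with 1 probe set per gene, and 659 and 444 with an offset of 16. The share of falls was 41.4% with the t-test, 42.0% in the fit of 6 arrays, 48.3% with an intensity trend, 46.4% after further quantile normalization, 36.3% centred on the 100 normalization controls, 97.2% on the spike-in scale, 48.5% without dim probe sets, 47.2% with 1 probe set per gene, and 48.9% with the offset. The 41 probe sets whose dose effect differed from that of PLS-123 became 313 with the trend, 24 on the spike-in scale, 139 without dim probe sets, 15 with the ACTB covariate and 251 with the offset. On the spike-in scale BIRC2 (-0.068), HLA-DMB (-0.04) and CD79B (-0.034) changed sign without a call. The causes were not tested beyond the construction of each alternative.

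Leaving out single arrays gave 1673 to 2255 higher, 1257 to 2041 lower, 1051 to 1225 and 643 to 752 at the fold of 1.5, a share of falls from 38.9% without 10 μM replicate A to 50.2% without 1 μM replicate A, and 10 to 52 probe sets for the difference from PLS-123. Of 147 named genes called, 17 lost the call without at least 1 array, 58 with the t-test after adjustment and 15 in the fit of 6 arrays. Same-letter arrays did not deviate together (correlations of -0.21 to 0.15), so the letters were not taken as pairs. With the letter as a replicate block the counts were 2108 and 1694, the difference from PLS-123 was called in 27 probe sets, and 8 named genes lost their call.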

Other observations

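Genes outside the lists, chosen after their values were seen, added other functions to the large differences. Among the rises were PHYH, which starts the breakdown of branched fatty acids (2.79 on the log2 scale), LITAF, a protein of endosomal sorting (2.65, adjusted p = 1.5e-09 by limma), TRIB2, a Tribbles pseudokinase (2.63), and FAM43A (2.33). TSHR, the thyrotropin receptor, rose by 2.42, ACKR3, a scavenging chemokine receptor, by 2.19, and PDE4B, which degrades cyclic AMP, by 2.11. Among the falls were LOXL2, a lysyl oxidase of the extracellular matrix (-2.11), CD1C, which presents lipid antigens (-2.08), USP2, a deubiquitinase (-1.77), the receptor phosphatase PTPRS (-1.75), and VPREB3, a B-lineage relative of the surrogate light chain (-1.70, adjusted p = 5.8e-08 by limma). With PLS-123 against vehicle the values were 2.36 for PHYH, 2.40 for LITAF, 2.49 for TRIB2, -2.78 for LOXL2, -2.21 for CD1C and -1.60 for VPREB3.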
